A study of Mus musculus with 14 samples.

Results

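The small heat shock proteins and their cochaperone BAG3 form a chaperone system at the Z-disc of heart muscle. The genes described here are Cryab, Hspb1, Hspb2, Hspb3, Hspb6, Hspb7 and Hspb8, which encode small heat shock proteins, and Bag3. They were taken by name from the count table, 8 of its 49315 genes. All 8 were among the 15292 genes with enough counts to be tested. The group was chosen by gene family with the levels and fold changes of an earlier fit of the same table in view, so every level and adjusted p-value below describes these libraries and is no independent test of the group.

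RNA from the left ventricle was sequenced after poly(A) selection in 14 mice, each a separate library. WT-Sham (n = 4) and HCN4F-Sham (n = 4) mice had undergone a Sham operation, whereas WT-TAC (n = 2, replicates 2 and 3) and HCN4F-TAC (n = 4) mice had undergone transverse aortic constriction (TAC), which raises the pressure against which the left ventricle pumps. HCN4F is a knock-in line in which a single amino acid of the pacemaker channel HCN4 was exchanged, giving a gain of function and a faster heart rate. WT mice carried the normal channel. A further 2 columns of the table are named as WT hearts after TAC but match no sample label used here and were not analysed, so the WT-TAC values may not be those of the whole group. All were male, were operated at 10 to 12 weeks of age and were analysed 5 weeks later. The knock-in was present in every cell from birth, and whether it was carried on both copies, the strain, and whether WT mice were littermates are not given in the sources used here.

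Small heat shock proteins bind unfolding proteins without using ATP and hold them until other chaperones refold or remove them. BAG3 binds small heat shock proteins, above all HSPB8, and couples them to HSP70. With the ubiquitin ligase STUB1 (CHIP) this complex sends damaged filamin C and other strained cytoskeletal proteins to autophagy. In the heart, CRYAB protects desmin filaments, and faults in CRYAB or BAG3 are known causes of myofibrillar and dilated cardiomyopathy. Several of these genes, with those of HSP70, are targets of heat shock factor 1 (HSF1), which binds inverted repeats of the unit GAA in their promoters.

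Promoter sequences are shown because 6 of the 8 members rose after TAC in HCN4F hearts and HSF1 is the best known shared regulator of the family. RefSeq windows on GRCm38.p6 were at hand for 6 of the 8 members, not for Cryab and Hspb2. The 250 bases before the start were searched on both strands for a pair of units (GAANNTTC or TTCNNGAA, each of which reads the same on both strands). A pair stood before Hspb1, Hspb3 and the second of the Hspb6 starts in the table, and none was found before Hspb7, Hspb8 or Bag3. A short stretch just after the start was sought in the GENCODE transcripts of each gene. It was not found for the second Hspb6 start or for Bag3, so these starts are less certain than the others. A pair is found in 12.8% of the 32851 promoters of that RefSeq set. In the lines below the pair is in capitals, read along the gene's own strand, with 10 bases on each side.
Hspb1, 117 bases before the start, chr5:135887792-135887819 (+): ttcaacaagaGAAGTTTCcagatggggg
Hspb1, 97 bases before the start, chr5:135887812-135887839 (+): gatgggggcaGAACCTTCctggccccgc
Hspb3, 224 bases before the start, chr13:113663883-113663910 (-): tccccgaatgGAATTTTCaggcagaggg
Hspb6, 120 bases before the second start, chr7:30553171-30553198 (+): agtaattattGAAGTTTCtaaataagga

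The same 8 letters, GAAGTTTC, stood at the first Hspb1 site and at the Hspb6 site, at 117 and 120 bases before the start. The whole windows of Hspb1, with both of its pairs in capitals, and of Hspb7, with none, are given as the contrasting cases. A match describes letters only and is not evidence of binding.
Hspb1, chr5:135887669-135887918 (+): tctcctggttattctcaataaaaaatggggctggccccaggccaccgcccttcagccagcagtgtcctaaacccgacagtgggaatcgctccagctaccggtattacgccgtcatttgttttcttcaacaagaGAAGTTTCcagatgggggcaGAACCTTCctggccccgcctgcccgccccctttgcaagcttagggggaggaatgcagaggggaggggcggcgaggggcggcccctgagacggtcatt
Hspb7, chr4:141420529-141420778 (+): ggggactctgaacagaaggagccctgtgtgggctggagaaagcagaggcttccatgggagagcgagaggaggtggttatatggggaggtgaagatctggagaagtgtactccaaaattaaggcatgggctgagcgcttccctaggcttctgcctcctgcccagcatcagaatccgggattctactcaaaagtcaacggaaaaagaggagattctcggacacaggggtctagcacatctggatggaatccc

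The libraries held 22309914 to 35210939 counts, of which mitochondrial genes took 13.9% to 23.1% and the 8 members 0.438% to 0.82%. The tissue label was checked with marker genes. The summed level of 9 cardiomyocyte markers was 70126 to 91718 CPM (counts brought to a common library size by TMM scaling), while the summed level of 4 atrial markers was at most 3.59 CPM in the other groups and 1.48 to 31.1 CPM in HCN4F-TAC, highest in replicate 2. The skeletal muscle genes Myh1 and Myh4 and the brown fat gene Ucp1 had at most 3 counts in every library. All 5 skeletal muscle markers summed to at most 2.14 CPM, and the 4 adipocyte markers to 21.4 to 27.6 CPM. The skeletal muscle marker Tnnt3 was higher after TAC in HCN4F hearts (log2 fold change 1.15, adjusted p = 0.0283), while Mylpf did not pass (-0.41). In these bulk samples fewer cardiomyocytes and less RNA per cardiomyocyte cannot be told apart.

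TAC raised most members in HCN4F hearts. Hspb6, Hspb1, Hspb7, Hspb8, Bag3 and Cryab were higher in HCN4F-TAC than in HCN4F-Sham hearts, by 1.27-fold to 1.73-fold, and in each of them the lowest TAC library lay above the highest Sham library, as in 7.95% of all tested genes. These 6 of 8 members passed an adjusted p of 0.05 in the higher direction, whereas 7.2% of all tested genes did so, and the median log2 fold change was 0.50 over the members and -0.01 over all tested genes. No member exceeded a log2 fold change of 1, the size that the study also asked for (2.75% of all genes passed both thresholds).

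Gene positions below are those of GENCODE M21 on GRCm38, the build that the submitters' processing notes name. Hspb7 (ENSMUSG00000006221, chr4:141420779-141425311), a small heat shock protein of heart and skeletal muscle that binds filamin C, was the most abundant member by CPM. It reached 2258, 2104, 2245 and 2108 CPM in HCN4F-Sham replicates 1 to 4 and 3967, 3863, 3134 and 3242 CPM in HCN4F-TAC replicates 1 to 4. The TAC libraries were thus spread more widely than the Sham libraries, with replicates 1 and 2 the highest, and the log2 fold change was 0.70 (SE 0.08, adjusted p = 6.95e-05). Hspb6 (ENSMUSG00000036854, chr7:30552178-30555443), known as HSP20 and a target of cAMP-dependent kinase, had the largest fold change. Its levels were 674, 649, 531 and 590.1 CPM after Sham and 1164, 1158, 930.1 and 984 CPM after TAC, a log2 fold change of 0.79 (SE 0.09, adjusted p = 6.95e-05). As for Hspb7, HCN4F-TAC replicates 1 and 2 were above replicates 3 and 4. Of the exonic length of Hspb6, 8.8% overlaps Proser3, Gm38670 or Lin37, so some of its reads may belong to those genes.

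Hspb1 (ENSMUSG00000004951, chr5:135887919-135889563), known as HSP25 in the mouse and a binder of actin filaments, was at 298, 252, 178 and 288 CPM in HCN4F-Sham replicates 1 to 4. The TAC libraries had 455, 415, 359 and 441 CPM, and replicate 3 was the lowest library in both groups. The log2 fold change was 0.72 (SE 0.15, adjusted p = 0.00477), with the largest standard error of the 6 genes. Cryab (ENSMUSG00000032060), which encodes αB-crystallin and acts on desmin, had 957, 927, 798 and 851 CPM after Sham and 1207, 1179, 1014 and 1100.4 CPM after TAC. Its rise was the smallest of the 6 at 0.35 on the log2 scale (SE 0.08, adjusted p = 0.00835).

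The direct partners Hspb8 and Bag3 also rose. Hspb8 (ENSMUSG00000041548, chr5:116408491-116422864) stood at 274, 285, 321 and 285 CPM after Sham and at 427, 509, 379 and 417 CPM after TAC in HCN4F hearts, with replicate 2 the highest TAC library. The log2 fold change was 0.57 (SE 0.09, adjusted p = 0.000706). Bag3 (ENSMUSG00000030847, chr7:128523616-128546981) was at 210.0, 171, 229 and 248 CPM after Sham and at 322, 300.3, 280.0 and 254 CPM after TAC. The nearest libraries of the Bag3 groups, at 248 and 254 CPM, were only just apart, and the log2 fold change was 0.43 (SE 0.11, adjusted p = 0.0131).

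Hspb2 and Hspb3, whose proteins form a complex of their own in muscle, did not pass. Hspb2 (ENSMUSG00000038086) was at 71.0, 71.8, 59.2 and 59.1 CPM after Sham and at 55.0, 59.9, 57.4 and 56.3 CPM after TAC, so that the groups overlapped (log2 fold change -0.19, SE 0.08, adjusted p = 0.119). Hspb3 (ENSMUSG00000051456, chr13:113662896-113663676), by far the least abundant member, had 6.36, 5.75, 3.90 and 2.93 CPM after Sham and 4.60, 7.08, 5.09 and 7.73 CPM after TAC. These groups overlapped widely, and the log2 fold change of 0.39 lay between those of Cryab and Bag3 but had a larger standard error (SE 0.22, adjusted p = 0.263).

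**Figure D1:**
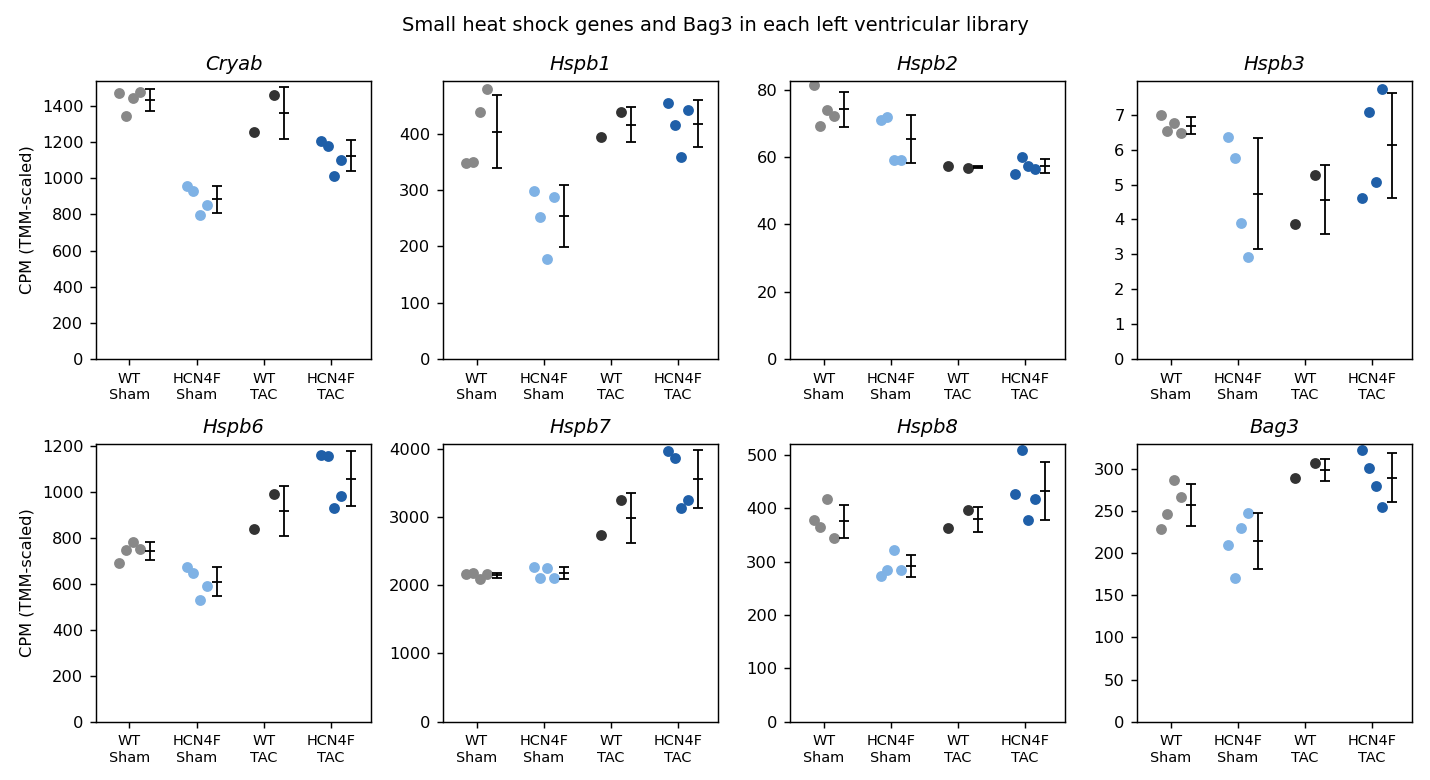
Level of each member in CPM (linear axis from 0) in every library of the 4 groups; points are libraries, and the bar beside them is the mean with its SD (n = 4, and n = 2 for WT-TAC). The 4 HCN4F-Sham libraries lie below the other groups for Cryab, Hspb1, Hspb6 and Hspb8, and Hspb6 and Hspb7 are highest in HCN4F-TAC on average.

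Other measures moved with the HCN4F comparison. The summed cardiomyocyte markers were lower after TAC (70126 to 78038 CPM) than after Sham (78192 to 87072 CPM), with 4 of 9 markers lower and 1 higher. The summed level of 5 fibroblast markers was 449 to 567 CPM after Sham and 529 to 823 CPM after TAC. Of the 5, Col1a1 (log2 fold change 1.14) and Lum (0.51) rose, 2 in all, and the median was 0.10. Dcn (0.10), Pdgfra (0.10) and Tcf21 (0.06) did not pass. The mitochondrial share was 17.1% to 21.4% after Sham and 13.9% to 18.6% after TAC. The same 6 members passed with mitochondrial genes left out and without HCN4F-TAC replicate 2, refits that do not test the makeup of the tissue. The part of these cell types, the mitochondrial share and the atrial markers in these results was not tested.

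In WT hearts Hspb7 rose and Hspb2 fell after TAC, and the other 6 members did not pass. That is 2 of 8, where 4.54% of all tested genes passed (2.92% higher and 1.62% lower), and the median log2 fold change was 0.03 over the members and -0.02 over all genes. Hspb7 went from 2157, 2174, 2094 and 2156 CPM in WT-Sham replicates 1 to 4 to 2729.9 and 3246 CPM in WT-TAC replicates 2 and 3. The Sham libraries lay within a narrow band, and both TAC libraries were above it (log2 fold change 0.48, SE 0.10, adjusted p = 0.0180). Hspb2 went from 81.2, 69.2, 73.9 and 72.2 CPM to 57.3 and 56.8 CPM, with both TAC libraries below all Sham libraries (log2 fold change -0.38, SE 0.10, adjusted p = 0.0375). Both calls were lost when certain libraries were left out, while the fold changes kept their direction. Without WT-Sham replicate 1 or 4 the log2 fold change of Hspb7 was still 0.48 (adjusted p = 0.0500 and 0.0558) and that of Hspb2 was -0.34 and -0.39 (adjusted p = 0.103 and 0.0827). Without WT-TAC replicate 3 they were 0.35 and -0.37 (adjusted p = 0.292 and 0.286). Hspb2 also missed the threshold without WT-Sham replicate 3 or WT-TAC replicate 2, at -0.38 each time. The number of all tested genes that passed fell as well, from 694 to 163 without WT-Sham replicate 1, 160 without WT-Sham replicate 4 and 11 without WT-TAC replicate 3.

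Marker genes moved with this comparison as well. The summed smooth muscle markers were 452 to 582 CPM in WT-Sham and 329 to 342 CPM in WT-TAC hearts, with no overlap, a median log2 fold change of -0.58 and 1 of 5 markers lower (Smtn, -0.36, adjusted p = 0.0486). The cardiomyocyte markers went from 89074 to 91718 CPM in WT-Sham to 86471 to 87544 CPM, with a median log2 fold change of -0.09. Lower were 2 of 9, Tnnt2 (-0.39, adjusted p = 0.0257) and Tnni3 (-0.52, adjusted p = 0.0427), and none was higher. The part of these cell types in the WT changes was not tested.

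The other WT values are given without a call. Hspb6 was at 694, 749.6, 785 and 751 CPM after Sham and at 839.9 and 994 CPM after TAC (log2 fold change 0.30, SE 0.11, adjusted p = 0.131). Bag3 was at 228, 246, 287 and 266 CPM after Sham and at 289 and 307 CPM after TAC (0.22, SE 0.13, adjusted p = 0.347). In both genes the TAC libraries lay above the Sham libraries, as they did for Hspb7, so 3 of 8 members did not overlap in the higher direction, against 19.2% of all tested genes with only 2 TAC libraries. Hspb3 was at 6.99, 6.53, 6.77 and 6.47 CPM after Sham and at 3.86 and 5.27 CPM after TAC (-0.54, SE 0.27, adjusted p = 0.251). With Hspb2 it makes 2 of 8 members that did not overlap in the lower direction, against 20% of all genes.

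For Cryab, Hspb1 and Hspb8 the WT values hardly moved. Cryab was at 1473, 1345, 1446 and 1476 CPM in WT-Sham hearts and at 1257 and 1461 CPM in WT-TAC, so that the log2 fold change was -0.08 with a 95% interval of -0.29 to 0.13. Hspb1 was at 347, 350.3, 438 and 478 CPM and then at 394 and 437 CPM, a change of 0.04 (-0.33 to 0.42). Hspb8 was at 378, 365, 417 and 344 CPM and then at 363 and 396 CPM, a change of 0.02 (-0.22 to 0.25). The groups overlapped for all 3 genes.

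**Figure D2:**
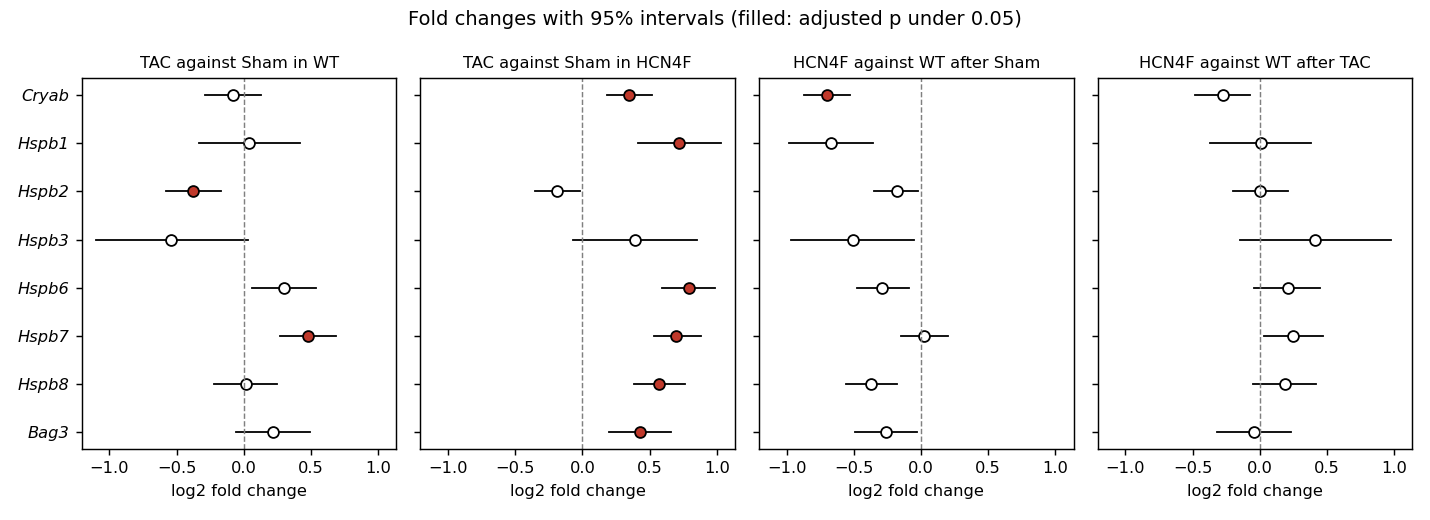
Log2 fold change of each member (x axis, points) with its 95% interval (lines) in the 4 comparisons; filled points passed an adjusted p of 0.05 in edgeR's fit over all genes. In HCN4F hearts 6 of the 8 points after TAC are filled and above 0, while in WT hearts Hspb7 and Hspb2 are filled, and Cryab alone is filled between the genotypes after Sham.

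After Sham, Cryab had a lower level in HCN4F hearts (883 ± 72.6 CPM, mean ± SD, n = 4) than in WT hearts (1435 ± 61.3 CPM, mean ± SD, n = 4), and the highest HCN4F library, at 957 CPM, lay well below the lowest WT library, at 1345 CPM. The log2 fold change was -0.70 (SE 0.08, adjusted p = 0.000233), or 0.615 times the WT level. Cryab was the 1 member of 8 that passed, where 0.471% of all tested genes did so (0.242% lower). Hspb1, Hspb3, Hspb6 and Hspb8 had no overlap between the groups either, all with lower HCN4F libraries, which makes 5 of 8 members against 4.67% of all tested genes. The median log2 fold change was -0.33 over the members and 0 over all tested genes.

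Those 4 members did not pass the threshold. The mean of Hspb1 was 403 ± 65.1 CPM (SD, n = 4) for WT-Sham against 254 ± 54.3 CPM (SD, n = 4) for HCN4F-Sham, a log2 fold change of -0.67 (SE 0.15, adjusted p = 0.058) nearly as large as that of Cryab but with a wider spread. That of Hspb8 was 376 ± 30.9 CPM (SD, n = 4) against 291 ± 20.8 CPM (SD, n = 4), a change of -0.37 (SE 0.09, adjusted p = 0.0758). Both genes passed with DESeq2 (adjusted p = 0.00124 and 0.0123), which called 3 members and 334 of 29811 genes. For Hspb6 the change was -0.29 (adjusted p = 0.165) and for Hspb3 -0.51 (adjusted p = 0.277). Bag3 (-0.26, adjusted p = 0.264) and Hspb2 (-0.18, adjusted p = 0.274) overlapped between the genotypes. Hspb7 was the 1 member with a value near 0, at 2145 ± 35.3 CPM (SD, n = 4) for WT-Sham and 2179 ± 84.3 CPM (SD, n = 4) for HCN4F-Sham, and its log2 fold change of 0.02 had a 95% interval of -0.15 to 0.20.

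The summed smooth muscle markers were 452 to 582 CPM in WT-Sham and 305 to 496 CPM in HCN4F-Sham hearts, and the cardiomyocyte markers 89074 to 91718 CPM and 78192 to 87072 CPM. No single marker of either list passed, and their median log2 fold changes were -0.25 and -0.13. The part of these cell types in the Sham difference was not tested.

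Cryab and Hspb2 share a locus on chromosome 9, the chromosome of Hcn4, which lies 8.07 Mb away. Cryab spans chr9:50751325-50756636 on the plus strand and Hspb2 chr9:50751078-50752354 on the minus strand. Their starts are 1029 bp apart and they overlap by 252 exonic bases, 17.0% of the exonic length of Cryab and 30.2% of that of Hspb2. The use of strand in counting is not stated, so reads in the overlap cannot be assigned with certainty. Of the 2 genes, only Cryab passed between the genotypes after Sham. The ratio of Cryab to Hspb2 CPM was 19.4 ± 0.951 (SD, n = 4) in WT-Sham and 13.6 ± 0.613 (SD, n = 4) in HCN4F-Sham hearts, with ranges of 18.1 to 20.4 and 12.9 to 14.4. After TAC it was 23.8 ± 2.69 (SD, n = 2) in WT and 19.7 ± 1.75 (SD, n = 4) in HCN4F hearts, where the ranges overlapped at 21.9.

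Genes beside Cryab differed between the genotypes as well. Of 21 tested genes that start within 500 kb of the Cryab start, itself included, 5 had a lower level in the HCN4F-Sham group and 0 a higher one, against 0.242% and 0.229% of all tested genes. The other 16 did not pass, and 11 of the 21 had a log2 fold change below 0 (median -0.15). Apart from Cryab itself, the nearest of those 5 was Dixdc1, a Wnt pathway gene that starts 11.8 kb from Cryab. Its levels were 5.31 to 7.06 CPM in WT-Sham and 1.62 to 2.45 CPM in HCN4F-Sham hearts, a log2 fold change of -1.61 (SE 0.16, adjusted p = 4.58e-05), and it was lower after TAC too (-1.67, SE 0.20, adjusted p = 0.000595). Pts, an enzyme of tetrahydrobiopterin synthesis, starts 223 kb away and differed by -1.48 after Sham and -1.30 after TAC. Plet1os and Plet1, 243 and 257 kb away, had almost no counts in HCN4F hearts after Sham, at 0.0845 and 0.00904 CPM on average against 6.04 and 0.387 CPM in WT hearts. Dixdc1, Pts and Plet1os passed after both operations, whereas Cryab passed after Sham only, and the difference of its genotype effect between the operations was 0.43 on the log2 scale (SE 0.13, adjusted p = 0.418), which did not pass. Hcn4 itself was at 6.36 to 13.0 CPM in HCN4F-Sham and 8.07 to 10.6 CPM in WT-Sham hearts (log2 fold change -0.06, SE 0.26, adjusted p = 0.934). After TAC it was at 5.93, 3.49, 8.41 and 9.07 CPM in HCN4F hearts and at 11.9 and 13.5 CPM in WT hearts. These groups did not overlap, but the change of -0.92 did not pass (SE 0.31, adjusted p = 0.238). DNA flanking the knock-in and the knock-in itself cannot be told apart as the source of a genotype difference at this locus.

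**Figure D3:**
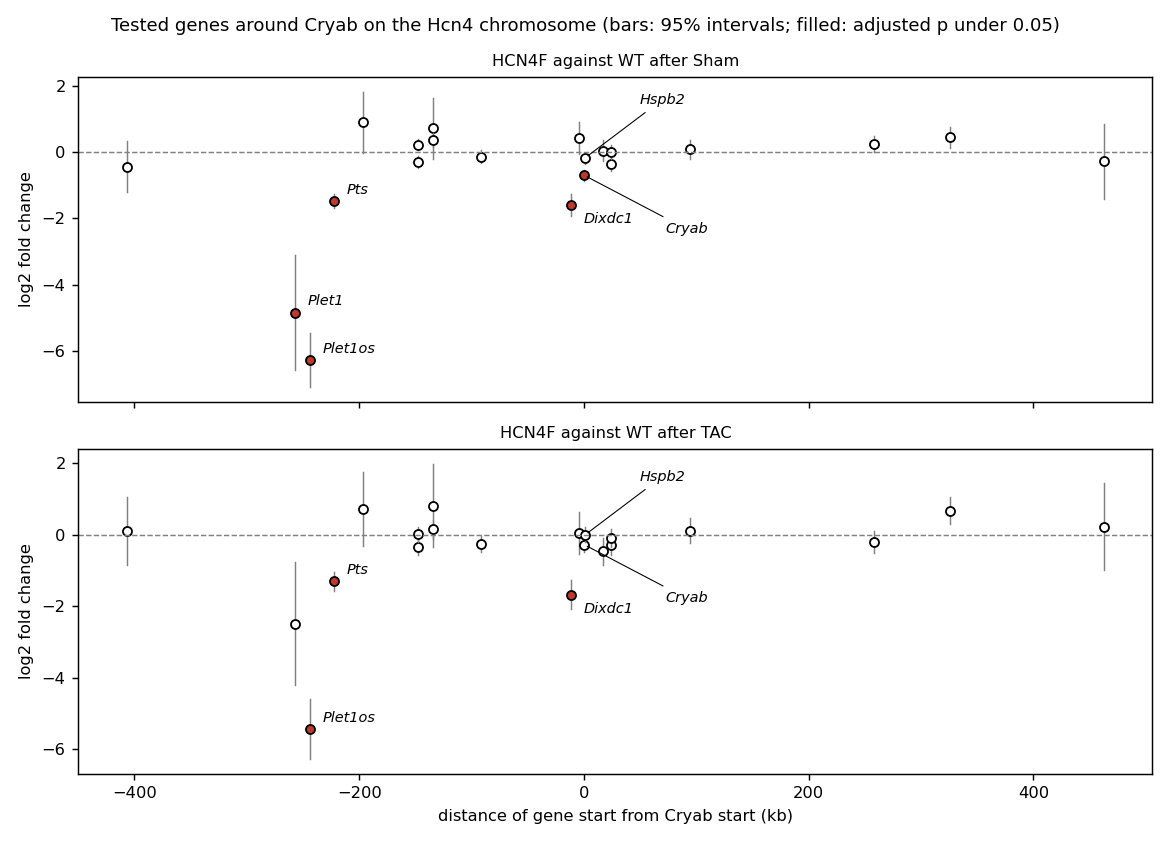
Log2 fold change between HCN4F and WT hearts (y axis, with 95% intervals) of the 21 tested genes within 500 kb of Cryab, by the distance of their start from the Cryab start in kb, after Sham (top) and after TAC (bottom); filled points passed an adjusted p of 0.05. Dixdc1, Pts and Plet1os are filled in both panels and Cryab and Plet1 in the top panel, and the fitted values of Plet1 and Plet1os rest on almost no counts in HCN4F hearts.

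After TAC no member passed between the genotypes (0 of 8, with 0.111% of all tested genes passing), also with DESeq2. An unadjusted p under 0.05 was reached by Cryab and Hspb7, as by 12.5% of all tested genes. Cryab was the 1 member without overlap, at 1125 ± 86.8 CPM (SD, n = 4) for HCN4F-TAC and 1359 ± 144 CPM (SD, n = 2) for WT-TAC, and its log2 fold change was -0.27 (SE 0.10, adjusted p = 0.254), where 11% of all genes did not overlap in the lower direction. Hspb7 was at 3552 ± 424 CPM (SD, n = 4) for HCN4F-TAC and 2988 ± 365 CPM (SD, n = 2) for WT-TAC, with overlap (0.25, SE 0.10, adjusted p = 0.333). Hspb6 had a change of 0.21 (95% interval -0.04 to 0.45), Hspb8 of 0.19 (-0.05 to 0.42) and Hspb3 of 0.41 (-0.15 to 0.98). Hspb1, Hspb2 and Bag3 were nearest to 0, at 0.01 (-0.37 to 0.38), 0 (-0.20 to 0.21) and -0.04 (-0.32 to 0.23). With n = 2 in WT-TAC these intervals leave room for sizeable differences.

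Whether TAC moved a member unequally in HCN4F and WT hearts was examined as an interaction term. No member passed with edgeR or DESeq2 (0 of 8). Of the 15292 tested genes none did in edgeR (0%), whereas 33 of 29811 genes passed with DESeq2, 17 of 29814 in edgeR without a filter on low counts and 78 of 15300 in edgeR without HCN4F-TAC replicate 3, no member among them. All 8 interaction values were above 0, which 51.3% of all tested genes were, and 5 of 8 had an unadjusted p under 0.05 against 9.27% of all genes. The values were 0.92 for Hspb3, 0.67 for Hspb1, 0.56 for Hspb8, 0.49 for Hspb6, 0.43 for Cryab, 0.23 for Hspb7, 0.22 for Bag3 and 0.19 for Hspb2. Hspb8 had the smallest adjusted p (0.394). The passing of 6 members in HCN4F and 2 in WT hearts therefore does not show that the responses differ. The Sham libraries enter both the response to TAC and the comparison of genotypes after Sham, so a low HCN4F-Sham level appears in both.

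To compare the genes with each other, levels were expressed as CPM per kb of exon. In WT-Sham hearts the order was Cryab (970.1 CPM per kb), Hspb7 (775), Hspb1 (391), Hspb6 (324), Hspb8 (193), Bag3 (100.3), Hspb2 (88.9) and Hspb3 (8.56). Hspb1 and Hspb6 overlapped between libraries, as did Bag3 and Hspb2, and the other neighbours in the order did not. In HCN4F-Sham hearts Hspb7 (787 CPM per kb) stood above Cryab (597 CPM per kb), with no overlap. Hspb7 was first in HCN4F-TAC hearts as well (1283 CPM per kb, against 761 for Cryab). In WT-TAC hearts the means were 1079 and 919 CPM per kb, and the libraries of the 2 genes overlapped.

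Summed over the 7 small heat shock genes, the level was 2750.3 CPM per kb ± 91.7 (SD, n = 4) in WT-Sham, 2129 ± 119 (SD, n = 4) in HCN4F-Sham, 3069 ± 319 (SD, n = 2) in WT-TAC and 3207 ± 310.4 (SD, n = 4) in HCN4F-TAC hearts. Cryab made up 35.3% ± 0.99 (SD, n = 4) of this sum in WT-Sham, 28.0% ± 0.933 (SD, n = 4) in HCN4F-Sham, 29.9% ± 0.0603 (SD, n = 2) in WT-TAC and 23.8% ± 0.551 (SD, n = 4) in HCN4F-TAC hearts. The share of Hspb7 was 28.2% ± 1.28 (SD, n = 4), 37.0% ± 2.45 (SD, n = 4), 35.1% ± 0.645 (SD, n = 2) and 39.9% ± 1.23 (SD, n = 4) in the same order. Cryab thus had the largest share in WT-Sham hearts and Hspb7 in the other 3 groups. Hspb3 stayed under 0.358% of the sum in every library.

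**Figure D4:**
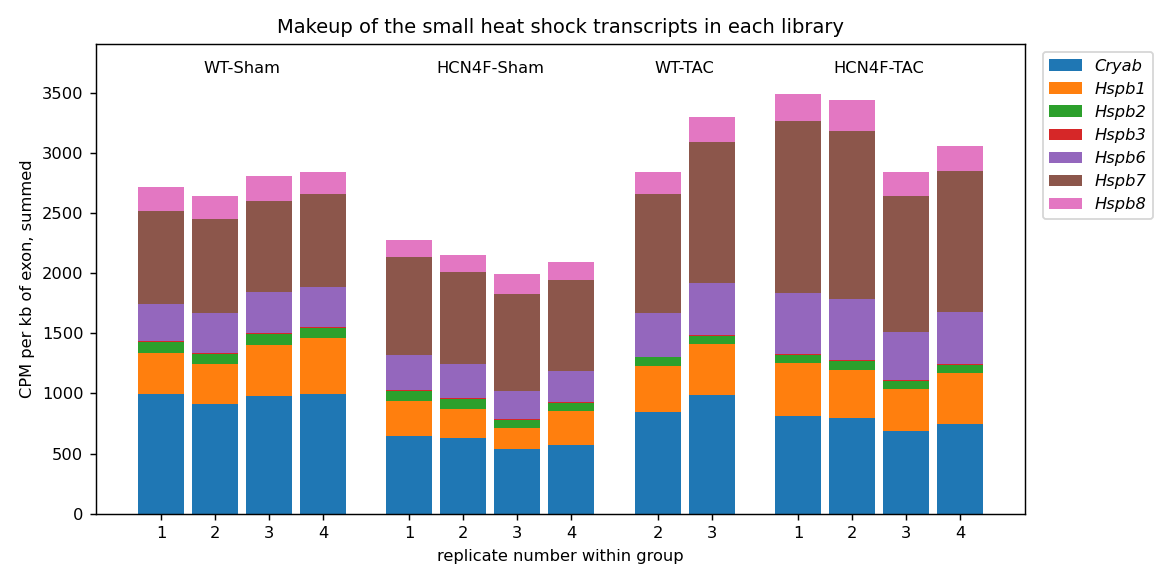
Stacked levels of the 7 small heat shock genes in each library, in CPM per kb of exon (linear axis from 0), with libraries ordered by group and replicate number. The Cryab block is shortest in the 4 HCN4F-Sham libraries, and the Hspb7 block is tallest in the TAC libraries.

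The partners and possible clients of the members were read from lists that were also drawn up with results known. The other genes of the family, Cryaa, Hspb9 and Odf1, had too few counts to be tested. Of 5 other BAG genes, Bag2, a cochaperone that inhibits STUB1, rose in HCN4F hearts after TAC (log2 fold change 0.66, SE 0.12, adjusted p = 0.00201), where 7.2% of all tested genes rose, and no other passed in any comparison.

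Of 17 genes listed as partners of BAG3 in selective autophagy or close relatives of one, 5 rose and 1 fell after TAC in HCN4F hearts, where 7.2% of all tested genes rose and 6.41% fell. In WT hearts 2 of the 17 rose, against 2.92% of all genes. The medians were 0.18 and 0.16, beside -0.01 and -0.02 over all genes. A single fall among the 17 is close to the share of all genes that fell. Synpo2l, a Z-disc protein related to the BAG3 partner synaptopodin 2, rose in both, and without it 4 of 16 genes rose in HCN4F and 1 in WT hearts. Synpo2l went from 106 to 148 CPM in HCN4F-Sham to 507 to 764 CPM in HCN4F-TAC hearts (log2 fold change 2.30, SE 0.17), and from 118 to 140.4 CPM to 282 and 442 CPM in WT hearts (1.53, SE 0.19). Synpo2 rose in WT hearts (0.52), and Capza1, Dnajb6, Wwtr1 and Ywhag rose in HCN4F hearts by 0.29 to 0.45. Stub1, the ubiquitin ligase of the complex, fell in HCN4F hearts (-0.25, SE 0.07, adjusted p = 0.0179). Sqstm1, the autophagy receptor p62, did not pass in either genotype (0.18 and 0.21). Hspa8, the constitutive HSP70, was at 905, 955, 1116 and 1129.6 CPM in WT-Sham and at 760.0, 712, 731 and 857 CPM in HCN4F-Sham hearts, with no overlap (-0.42, SE 0.08, adjusted p = 0.0352).

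Of 19 genes of HSF1 and its inducible targets, 4 rose and 1 fell after TAC in HCN4F hearts, 1 fell after TAC in WT hearts, and 1 was lower in HCN4F hearts after Sham. Over all tested genes 7.2% rose and 6.41% fell after TAC in HCN4F hearts, 1.62% fell in WT hearts and 0.242% were lower in HCN4F hearts after Sham, so a single fall among 19 genes in HCN4F hearts is near the share of all genes. The median log2 fold changes were 0.22, -0.14 and -0.34 in these comparisons, beside -0.01, -0.02 and 0 over all tested genes. Those that rose in HCN4F hearts were Hsp90aa1 (0.83), Serpinh1, the collagen chaperone HSP47 (0.51), Hspa4l (0.45) and Hspa4 (0.34), and Fkbp4 fell (-0.27). Dnajb1, an HSP40 cochaperone of HSP70, was at 20.5, 31.2, 44.6 and 30.1 CPM in WT-Sham, 13.5, 15.3, 15.4 and 14.8 CPM in HCN4F-Sham, and 16.4 and 15.1 CPM in WT-TAC hearts. In HCN4F-TAC hearts it was at 25.2, 22.2, 16.1 and 19.9 CPM, above all HCN4F-Sham libraries (0.50, SE 0.19, adjusted p = 0.0949), which did not pass. Dnajb1 was lower in HCN4F-Sham (-1.10, SE 0.19, adjusted p = 0.0214) and in WT-TAC hearts (-1.01, SE 0.24, adjusted p = 0.0319) than in WT-Sham hearts. Hsf1 itself passed in no comparison, and its group means lay between 32.3 and 39.5 CPM.

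The inducible HSP70 genes Hspa1a and Hspa1b are near-identical copies, so the split of reads between them is uncertain. Hspa1a was at 6.39, 15.1, 69.2 and 17.1 CPM in WT-Sham and at 3.76, 2.37, 2.02 and 4.17 CPM in HCN4F-Sham hearts. Every HCN4F-Sham library was below every WT-Sham library, but the WT values were so spread that the change of -3.11 (SE 0.81) did not pass (adjusted p = 0.124). Hspa1b gave -4.08 (SE 0.93, adjusted p = 0.0871). After TAC in HCN4F hearts Hspa1a was at 36.1, 14.5, 5.02 and 17.8 CPM, above all Sham libraries of the genotype (2.55, SE 0.82, adjusted p = 0.0641).

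A list of 13 Z-disc and filament genes was drawn up as possible clients of small heat shock proteins or BAG3. After TAC 7 of them rose in HCN4F hearts and 5 in WT hearts, and 0 fell. Of all tested genes 7.2% and 2.92% rose. The medians were 0.30 and 0.33, beside -0.01 and -0.02 over all genes. Flnc, which encodes filamin C, rose by 1.02 in WT (SE 0.12, adjusted p = 0.00107) and by 1.03 in HCN4F hearts (SE 0.11, adjusted p = 2.57e-05), where it went from 481 to 634 CPM to 1072 to 1350.5 CPM. Myot, Xirp1, Actn2 and Ldb3 rose in both genotypes. Des, the desmin gene, was at 1876 to 2235 CPM in HCN4F-Sham and 2436 to 3131 CPM in HCN4F-TAC hearts (0.44, SE 0.08, adjusted p = 0.00201), and its change in WT hearts was 0.19 (SE 0.10, adjusted p = 0.281). Csrp3, the muscle LIM protein, also rose in HCN4F hearts (0.64). No gene of this list passed between the genotypes.

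**Figure D5:**
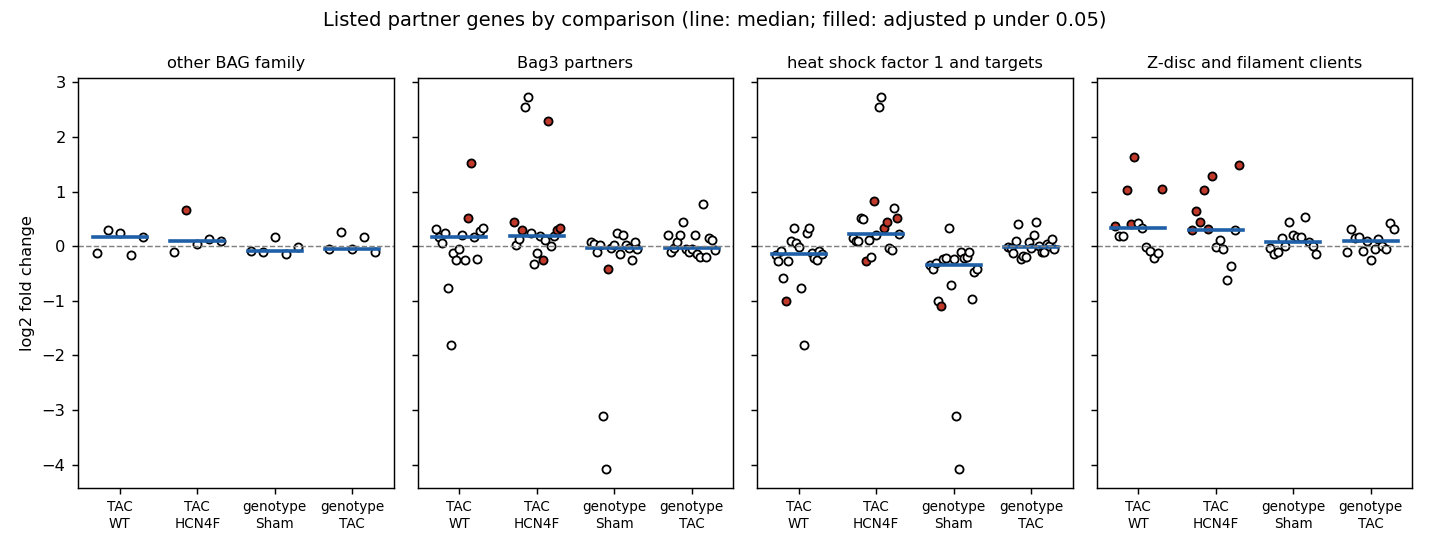
Log2 fold change (y axis) of each tested gene of 4 lists in the 4 comparisons (x axis); points are genes, the line is the list's median, and filled points passed an adjusted p of 0.05. Filled points above 0 are found in the TAC comparisons, and the medians of the HSF1 list are 0.22 for TAC in HCN4F hearts and -0.34 between the genotypes after Sham.

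The members did not all follow each other from library to library. Likeness was measured as Pearson's r of log2 CPM over the 14 libraries, which fall into 4 groups, so r is given as a description with the value after subtracting group means in parentheses. Hspb6 and Hspb7 were the most alike pair of members, with r = 0.90 (0.67). Cryab and Hspb6 had r = 0.46, and 0.87 within groups. Hspb2 and Hspb7 were the most opposed, with r = -0.73 (-0.01).

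Among all tested genes, those most like Hspb1 were other chaperone genes, Serpinh1 with r = 0.96 (0.91), Hsp90ab1 with 0.93 (0.89) and Ahsa2 with 0.92 (0.80). Bag3 was most like Dnaja4, an HSP40 gene, with r = 0.96 (0.95), followed by Gm15459 with 0.94 (0.92) and Iars with 0.94 (0.87). Hspb7 was most like Uck2 with r = 0.99 (0.93), Synpo2l with 0.98 (0.68) and Otulin with 0.97 (0.75). For Hspb6 the nearest genes were Tspan9 with r = 0.98 (0.85), Cox19 with 0.97 (0.93) and Prmt2 with 0.97 (0.87). For Hspb8 they were Nmt1 with r = 0.91 (0.81), Pter with 0.89 (0.69) and Zdhhc6 with 0.89 (0.83). Hspb2 was nearest to Emc9 with r = 0.97 (0.90), Ndufv3 with 0.96 (0.91) and Tonsl with 0.96 (0.88). Hspb3 was nearest to Aif1 with r = 0.94 (0.94), Nme1 with 0.94 (0.90) and Pebp1 with 0.89 (0.84). The genes nearest to Cryab were less alike, Gm27023 with r = 0.87 (-0.05), Med24 with 0.86 (0.33) and Srsf2 with 0.85 (0.47). Gm27023 and Aif1 had very low levels, at 0.226 and 0.862 CPM on average.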

How the data were processed

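RNA from the left ventricle of 14 mice was sequenced on an Illumina platform. The values, as deposited by the authors, are raw counts of reads on each gene with no scaling. GRCm38 is the build in the submitters' processing notes, and the aligner, the counting program and the use of strand are not given in the sources used here. Groups were taken from the sample labels. The table holds 2 further columns of per-sample values, whose names mark them as WT hearts after TAC but match none of the sample labels used here. They were left out of every step, so that each WT-TAC value rests on 2 libraries. The count totals were 22309914 to 35210939, and a count of 0 allows up to 3 counts, or 0.0859 to 0.137 CPM, for counting error only.

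All 14 libraries were fitted together in edgeR 4.0.16 under R 4.3.3 (TMM scaling, filterByExpr, robust quasi-likelihood test, 1 mean per group), with Benjamini-Hochberg adjustment over 15292 genes. The study used DESeq2, which served as an alternative (version 1.42.0), and its threshold was an adjusted p under 0.05 with a log2 fold change beyond 1. The steps were tested on simulated data with known changes. The other alternatives were DESeq2's size factors, edgeR fitted to the compared groups alone, all genes kept, a mean CPM of at least 1, mitochondrial genes left out, the replicate number as a block, and each replicate left out in turn. Intervals are 95% intervals of the fit. Log2 CPM for likeness used a prior count of 2.

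The members and all lists were chosen with earlier results of these data known. Named are the members, up to 6 genes per list and comparison past an adjusted p of 0.05, Hspa1a, Hspa1b, Hspa8, Dnajb1, Hsf1 and Des in any case, neighbours within 500 kb of Cryab, Hcn4, and the 3 genes most like each member. Sqstm1 and the genes used for the marker check were named after their values were seen or as markers. Coordinates and exon lengths come from GENCODE M21 (99.3% of gene IDs found), and promoters from RefSeq. Plots used Python 3.11.15 with matplotlib 3.10.9.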

Additional observations from a re-analysis of the deposited data

Results flagged for a closer look

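In 36 groups of 4 libraries the highest and lowest values were compared with the rest by Dixon's gap criterion, which flags about 1 in 20 groups by chance. It picked out 2 groups, neither of them among the 24 of the members. Hspa1a was at 69.2 CPM in WT-Sham replicate 3, and Hspa1b at 125 CPM in the same library, while the other 3 WT-Sham libraries held 6.39 to 17.1 CPM of Hspa1a and 7.47 to 27.0 CPM of Hspa1b. These near-identical genes share reads and count as 1 observation. In that library Dnajb1, at 44.6 CPM, was also the highest of its group, as were 3 of the 8 members, Bag3 (287 CPM), Hspb6 (785 CPM) and Hspb8 (417 CPM). The share of all tested genes that were highest in that library was not counted, so these 3 are a description only. Hspb7 was the lowest of its group there (2094 CPM), and Cryab, Hspb1, Hspb2 and Hspb3 were highest in other libraries. The cause was not tested.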

How the results depend on the processing

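The 6 rises of members after TAC in HCN4F hearts (Cryab, Hspb1, Hspb6, Hspb7, Hspb8 and Bag3) passed under all 21 alternatives, and so did the lower Cryab level in HCN4F-Sham hearts, with log2 fold changes of -0.74 to -0.65 and adjusted p-values of 1.08e-14 to 0.00214. No member passed between the TAC groups or for the interaction under any alternative run. Between the TAC groups 17 of 15292 genes passed as reported, 226 of 29811 with DESeq2 and 146 of 29814 without a filter on low counts. It was 3 of 14561 on the compared groups only and 454 of 15300 without HCN4F-TAC replicate 3. In WT hearts the count of 2 after TAC was 4 with edgeR on the compared groups only (Hspb2, Hspb3, Hspb6 and Hspb7) and 0 to 2 when 1 replicate was left out. It was 0 without WT-Sham replicate 1, WT-Sham replicate 4 or WT-TAC replicate 3. The calls over all genes moved too, from 694 to 2009 on the compared groups only and to 163, 160 and 11 in the settings with 0 members. Leaving out a WT-TAC library leaves 1 in the group, which is then assumed to vary like the other groups. Between the Sham groups the count of 1 was 3 with DESeq2, 2 without a filter on low counts, and 1 to 2 when 1 replicate was left out, with 72 calls over all genes against 334, 219 and 19 to 567. The causes were not tested.

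Replicate numbers did not pair the samples (r of -0.12 to 0.16 over 18 same-number pairs). With the replicate block the WT count was 1 (Hspb7, while Hspb2 was -0.37 with an adjusted p of 0.0779), the HCN4F count 6 and the Sham count 1, with 225, 1977 and 41 calls over all genes against 694, 2081 and 72 without it, and Hspb8 in WT hearts was -0.03 and Hspb1 between the TAC groups -0.12.

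The values that changed sign were all near 0 and past no threshold. Hspb1 and Hspb2 between the TAC groups were each -0.01 without mitochondrial genes and without a filter, -0.0047 and -0.01 with DESeq2, and -0.0043 and -0.01 with DESeq2's size factors. Hspb2 was -0.00017 on the compared groups only. When 1 replicate was left out, Hspb1 ranged from -0.07 to 0.08, Hspb2 from -0.03 to 0.02 and Bag3 from -0.10 to 0.01, and in WT hearts after TAC Hspb1 ranged from -0.03 to 0.14, Hspb8 from -0.05 to 0.08 and Cryab from -0.19 to 0.03. Of the log2 fold changes of members under alternatives, 790 kept their direction and side of the threshold, 8 gained a call, 9 lost one and 25 changed sign. Every comparison that uses the WT-TAC group rests on its 2 libraries, and the effect of depth was not tested.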
